A study of Mus musculus with 6 samples.

Results

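Histone and DNA modifying enzymes were followed in splenic plasmacytoid dendritic cells (pDCs) of IRF8-deficient (KO) and wild-type (WT) mice. The set holds 48 genes that were listed by name, namely acetyltransferases and deacetylases of histones, histone methyltransferases and demethylases, Polycomb subunits, enzymes that write or oxidise DNA methylation, and the ATPases of the BAF remodelling complex. Of these, 47 were measured among 19937 genes in all. Suv39h1, a methyltransferase of heterochromatin, was not analysed here because no probe set names it alone. Each gene was read from its brightest probe set, as log2 expression on Affymetrix arrays. The 6 arrays comprise 3 KO and 3 WT samples, all of them cells positive for B220 and SiglecH. The KO samples carry an IRF8 deficiency whose allele is not given in the sources used here, and neither the strain, the age nor the number of animals behind a sample is given for either genotype. Nothing says that samples of a genotype came from separate animals, so the p-values cover the spread among these arrays only, and that spread may be technical.

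As background, acetylation loosens the contact between histones and DNA and marks active promoters and enhancers, and deacetylases remove it. Methylation of histones marks active or silent genes depending on the residue. Polycomb repressive complex 2 (PRC2) methylates histone H3 at silent developmental genes, and Polycomb repressive complex 1 (PRC1) ubiquitinates histone H2A there. DNA methyltransferases add methyl groups to cytosine, and TET enzymes oxidise them. IRF8 is a transcription factor that dendritic cell lineages need during development, and the series asks how it governs terminal pDC maturation and holds back Myc.

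The array medians lay between 5.53 and 5.56, so these log2 values cannot show a shift shared by every transcript. Irf8 itself was not lower in KO (10.15, 10.49 and 10.79 in KO arrays, against 10.21, 9.97 and 10.24 in WT arrays, limma adjusted p = 0.425). Whether its probe set lies in the altered part of the gene is not known. The genotype could thus not be checked from these values, and every direction below rests on the labels. The pDC marker Siglech was bright in every array, at 12.18 to 12.34 in KO and 12.52 to 12.75 in WT. Of 10 measured pDC markers, 0 rose and 3 fell (Ccr9, Cd300c and Pacsin1), beside 2.3% and 2.08% of all genes. Their median difference was -0.46. In 6 of the 10 every KO array lay below every WT array, beside 11.7% of all genes, and in 1 every KO array lay above. Myc, named in the question the series asks, was higher in KO by 2.88 log2 units (limma adjusted p = 0.00289). Marker levels of the female Xist (11.66 to 11.81 in KO, 11.62 to 11.76 in WT) and of the Y-linked Eif2s3y (2.31 to 2.62 in KO, 2.42 to 2.56 in WT) gave no sign of mixed sexes between arrays. KO replicate 1 stood apart. Its neutrophil granule markers were shifted by a median of 3.999 log2 units from the WT mean, against 0.38 and 0.06 in KO replicates 2 and 3, and its G2 and mitosis markers by 2.85, against 0.56 and 0.34. Values without that array are given for the genes whose calls depended on it and for several others. In bulk samples such as these, fewer cells of a type and less RNA per cell cannot be told apart.

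As a set, the modifying enzymes lay higher in KO than the average gene, mostly by small amounts. By limma at a Benjamini-Hochberg adjusted p of 0.05, 6 of the 47 rose and 0 fell: Ezh2 and Eed of PRC2, the acetyltransferases Kat2a and Kat2b, the deacetylase Hdac7 and the methyltransferase Setd2. That is 12.8% of the members, while 2.3% of all genes rose and 2.08% fell (4.38% in either direction). All 47 members lay above the 25th percentile of brightness. Among the 14952 genes above it, 3.34% rose and 2.92% fell, with a median difference of -0.02, and the same 6 members rose. The members were chosen with earlier results of these data known, so these shares describe the set only. The median difference of the 47 was 0.28 log2 units, beside -0.04 over all genes tested, and 35 of them (74.5%) had a positive difference, beside 41.8% of all genes. At an unadjusted p under 0.05, 15 members were higher and 3 lower, against 7.58% and 8.49% of all genes. In 19 members every KO array lay above every WT array, in 3 every KO array lay below, and in 25 the groups overlapped. Over all genes tested the first pattern held for 8.71% and the second for 11.7%. The 3 members on the low side were the acetyltransferases Kat6b and Kat7 and the Polycomb reader Cbx7, none of which passed the adjusted threshold.

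Without KO replicate 1, 7 members rose and 0 fell: Setd2 was lost, while Kdm2b and Tet2 were added. Without any one of the other arrays, 2 rose, Ezh2 and Kat2b each time. The shares of all genes were 3.91% higher and 3.61% lower without KO replicate 1. They were 1.25% to 1.75% higher and 1.01% to 1.52% lower without any one of the others. A test of unequal variances per gene called 0 members, with 13 higher and 0 lower at an unadjusted p under 0.05. That test called only 0.01% of all genes higher and 0.01% lower, so its 0 says little about the members. Its share of all genes at the unadjusted p was not computed.

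**Figure D1:**
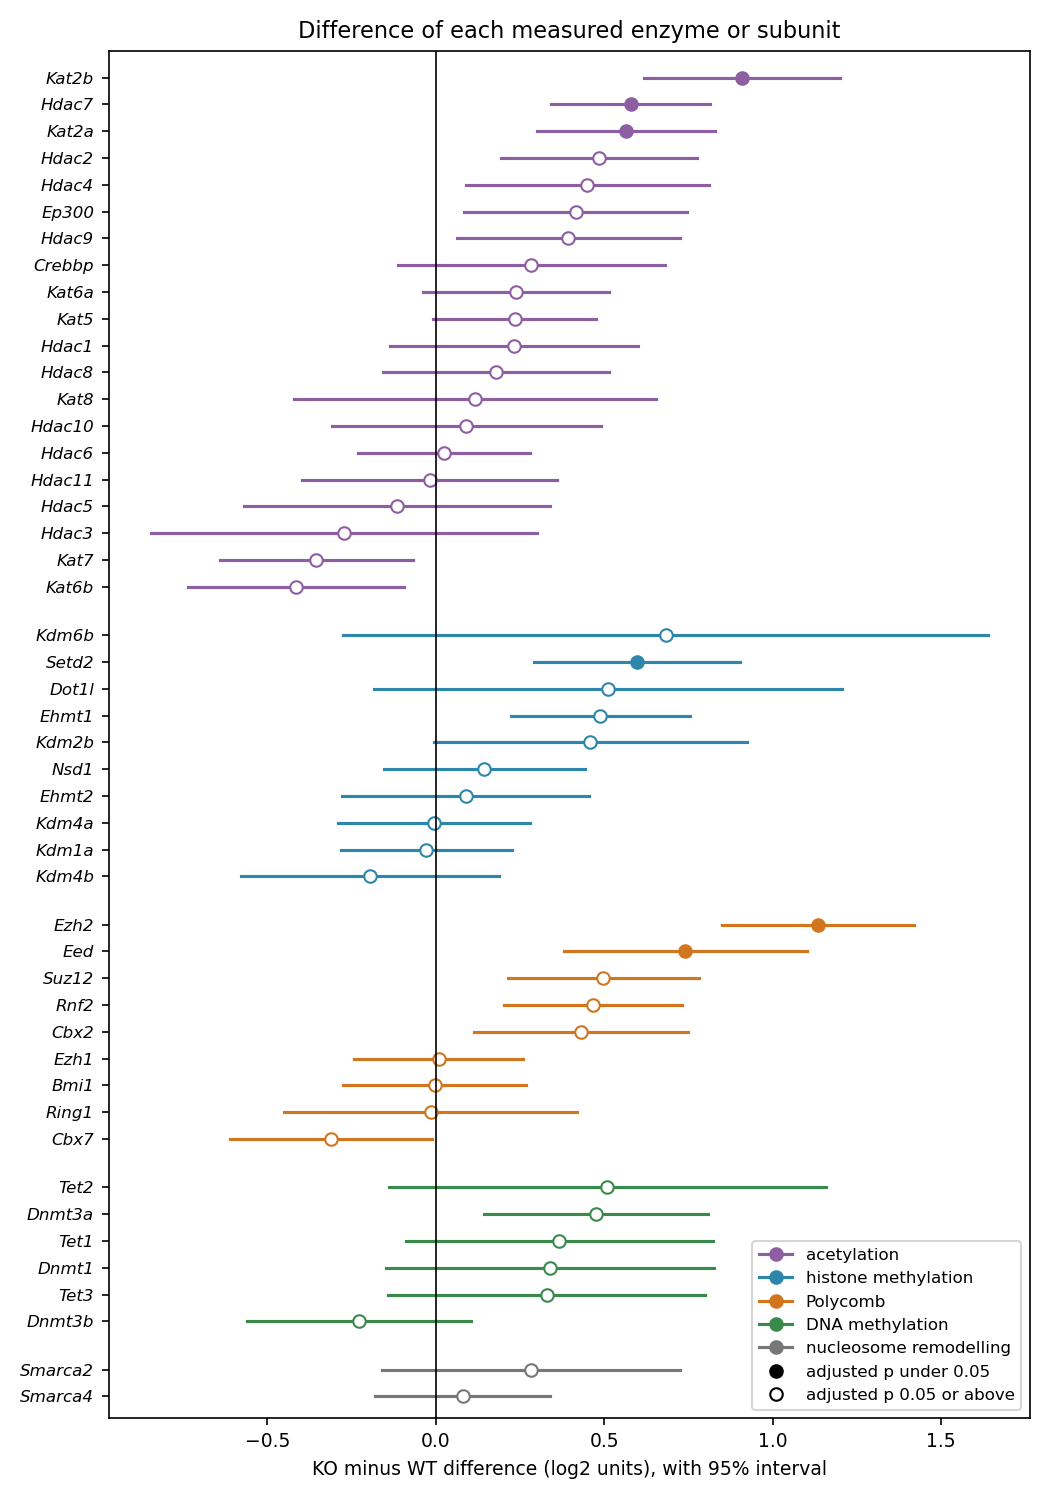
The KO minus WT difference in log2 units of each of the 47 measured genes is drawn with its 95% interval from the limma fit, grouped by the mark the enzyme acts on. Filled points, 6 in all, have an adjusted p under 0.05, and most open points lie to the right of 0.

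**Figure D2:**
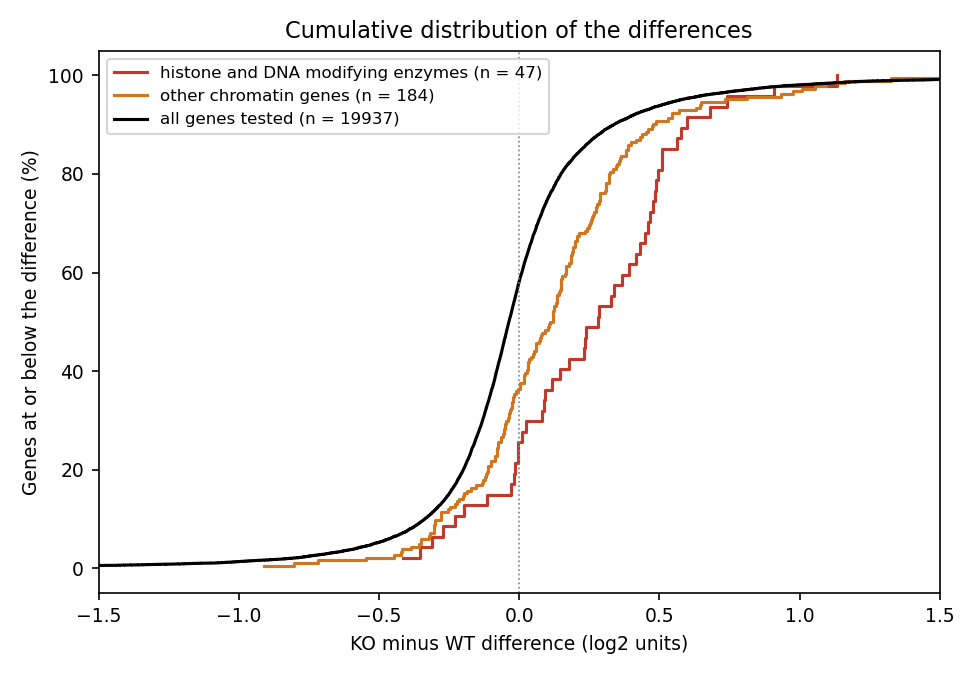
The share of genes (%) at or below each KO minus WT difference (log2 units) is drawn for the 47 modifying enzymes, for 184 other chromatin genes and for all 19937 genes tested. The curve of the modifying enzymes crosses its midpoint at 0.28, that of the other chromatin genes at 0.11 and that of all genes at -0.04.

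Polycomb genes had a median difference of 0.43 over 9 measured genes, of which 2 rose (22.2%, beside 2.3% of all genes) and 0 fell. Both were PRC2 subunits, and the median was 0.62 over the 4 PRC2 genes and 0.00 over the 5 PRC1 genes. Ezh2, the main PRC2 methyltransferase in dividing cells, measured 9.08, 8.81 and 8.92 in KO arrays, against 7.82, 7.92 and 7.68 in WT arrays. The lowest KO value stood well above the highest WT value. Ezh2 was 2.19-fold higher in KO, a log2 difference of 1.13 (SE 0.12, n = 3 each, limma adjusted p = 0.0026, exact permutation p = 0.10). With 3 against 3 arrays no exact two-sided p can go below 0.10. The call of Ezh2 held without any single array (adjusted p between 0.00403 and 0.0158).

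Eed, the subunit that binds the methylated histone tail and stimulates the enzyme, measured 7.90, 8.28 and 8.09 in KO arrays and 7.10, 7.50 and 7.45 in WT arrays. The groups did not overlap, and the difference was 0.74 (SE 0.15, limma adjusted p = 0.0411). Suz12, the scaffold of the complex, measured 9.43, 9.19 and 9.13 in KO and 8.71, 8.70 and 8.86 in WT. Its groups were also separate, with a difference of 0.50 (95% interval 0.21 to 0.78), but it missed the threshold (adjusted p = 0.0726). Ezh1, the other PRC2 methyltransferase, measured 7.44 ± 0.12 in KO and 7.43 ± 0.02 in WT (SD, n = 3 each), a difference of 0.01 (95% interval -0.24 to 0.26).

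The change of Ezh2 exceeded that of Ezh1 by 1.12 log2 units, and the gap between both genes within an array was wider in every KO array than in the WT arrays (exact permutation p = 0.10, or 0.225 adjusted over 9 pairs of paralogs). No pair can pass 0.05 with so few arrays. The call of Eed was lost without any one array other than KO replicate 1 (highest adjusted p 0.159). A dim Eed probe set that shares no RefSeq transcript with the gene measured 4.41 in KO and 4.67 in WT, and averaging both probe sets left a difference of 0.24 (adjusted p = 0.422).

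S phase markers, which report dividing cells, also measured higher in KO arrays. All 15 had a positive difference and 1 rose, the helicase subunit Mcm6 (log2 difference 1.44, limma adjusted p = 0.0204, named after its value was seen). Their summed linear level ran from 3606 to 4877 in KO and from 2804 to 2863 in WT. Relative to the WT mean, the list's median stood 1.07 higher in KO replicate 1 and 0.35 and 0.30 higher in KO replicates 2 and 3. Without KO replicate 1 the Ezh2 difference was 1.06. The part of proliferation in the Ezh2 level was not tested.

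Of the 5 PRC1 genes 0 rose and 0 fell by limma, with 2 higher and 1 lower at an unadjusted p under 0.05. Rnf2, the main ubiquitin ligase of PRC1, measured 8.13, 7.92 and 8.09 in KO arrays, against 7.47, 7.65 and 7.63 in WT arrays. Every KO value was higher, by 0.47 on average (95% interval 0.20 to 0.73, adjusted p = 0.0722). Its paralog Ring1 differed by -0.01 (95% interval -0.45 to 0.42), and Bmi1, a partner of both ligases known for stem cell self-renewal, measured 8.50, 8.21 and 8.32 in KO arrays and 8.38, 8.26 and 8.39 in WT arrays, with overlapping groups. The chromodomain readers that target PRC1 to PRC2 marks had differences of opposite sign. Cbx2 measured 7.01, 7.22 and 7.10 in KO arrays and 6.74, 6.85 and 6.45 in WT arrays, a difference of 0.43 (adjusted p = 0.156). Cbx7 measured 6.91, 6.62 and 7.01 in KO arrays and 7.20, 7.12 and 7.16 in WT arrays, a difference of -0.31 (adjusted p = 0.288).

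Of 25 other Polycomb genes, 0 rose and 1 fell, with a median difference of 0.12. Pcgf1, a subunit of a variant PRC1 that contains the demethylase Kdm2b, measured 6.17, 5.59 and 5.82 in KO arrays and 6.51, 7.09 and 6.70 in WT arrays. It fell by 0.91 on the log2 scale (SE 0.20, limma adjusted p = 0.0487), and the call was lost without any one array other than KO replicate 1 (highest adjusted p 0.173).

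Short motifs were searched on both strands in the 250 bases before each annotated start, in RefSeq windows of the mouse assembly GRCm38.p6. GAAA followed by any 2 bases and GAAA, the core that IRF proteins bind in interferon-response elements, was present in 2.98% of 32851 windows and in those of 1 of the 40 members with a window, Kat5. GGAA followed by any 2 bases and GAAA, the composite bound by IRF8 together with the ETS factor PU.1, was present in 2.3% of windows and in no member's. CACGTG, the E box that MYC binds, was present in 6.02% of windows and in those of Bmi1, Dnmt3a, Ehmt2 and Kat5. The E2F sites TTTCCCGC and TTTGGCGC were present in 0.895% and 0.417%, the first of them in Suz12. CCAAT was present in 33.8% of windows and in those of 18 members, Ezh2 and Kat2b among the 6 that rose. Both IRF motifs end in the same GAAA, and CACGTG reads the same on both strands. The percentages count single windows, while a member counts when any of its windows matches, so these are unlike units. The windows of Ezh2 and Kat2b overlap the annotated gene and are not shown. These are matches of letters and no test of binding.

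The upstream windows of Eed, which rose, and of Suz12, its partner in PRC2, are shown because these subunits had separate groups and their windows lie outside the annotated gene. Capitals mark an E2F site and then a CCAAT box, both in Suz12. The Eed window held none of the motifs. It has 12 CpG dinucleotides and 54.4% G and C, and the Suz12 window has 37 and 73.6%.
Eed, chr7:89980977-89981226 (minus strand): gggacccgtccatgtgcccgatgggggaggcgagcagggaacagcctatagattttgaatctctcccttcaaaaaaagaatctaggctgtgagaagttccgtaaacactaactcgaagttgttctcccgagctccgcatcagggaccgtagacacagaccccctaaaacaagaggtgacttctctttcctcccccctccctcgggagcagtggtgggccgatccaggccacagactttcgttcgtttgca
Suz12, chr11:79992856-79993105 (plus strand): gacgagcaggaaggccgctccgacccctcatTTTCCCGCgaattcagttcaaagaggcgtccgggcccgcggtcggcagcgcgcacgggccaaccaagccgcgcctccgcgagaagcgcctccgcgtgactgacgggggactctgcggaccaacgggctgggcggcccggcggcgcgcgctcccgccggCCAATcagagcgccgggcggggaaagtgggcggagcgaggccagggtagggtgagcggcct

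**Figure D3:**
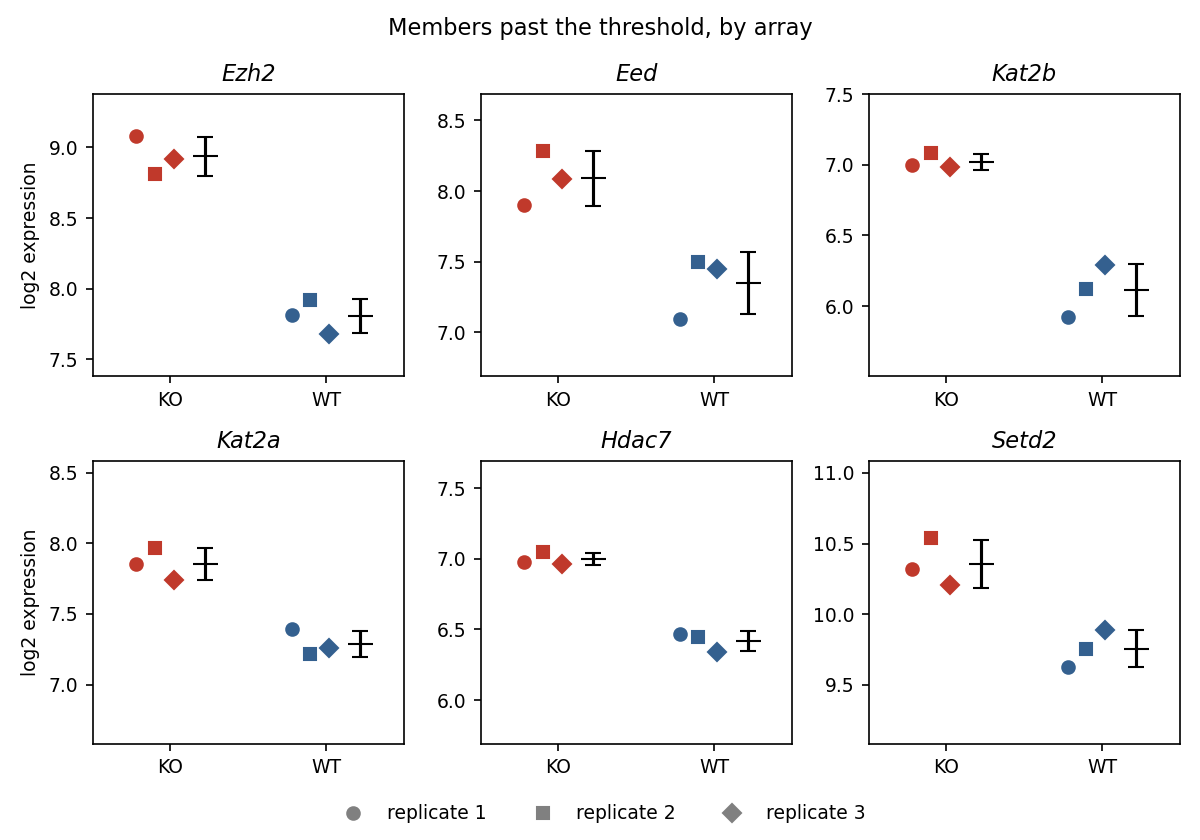
Each point is the log2 expression of 1 array for the 6 genes with an adjusted p under 0.05, with KO arrays on the left and WT arrays on the right of each panel, and the bar gives the mean ± SD. All panels span axes of equal length, and in each the KO arrays lie above the WT arrays.

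Acetylation genes rose in 3 of 20 cases (15%, beside 2.3% of all genes) and fell in 0, with a median difference of 0.23. The paralogs Kat2a and Kat2b, which acetylate histone H3 as parts of coactivator complexes, both rose. Kat2b measured 6.997, 7.08 and 6.98 in KO arrays, against 5.92, 6.12 and 6.29 in WT arrays. It was 1.88-fold higher in KO, with little spread among the KO arrays (log2 difference 0.91, SE 0.12, n = 3 each, limma adjusted p = 0.00755), and the call held without any single array (highest adjusted p 0.0429). Kat2a measured 7.86, 7.97 and 7.74 in KO arrays, against 7.39, 7.21 and 7.26 in WT arrays. It was 1.48-fold higher (log2 difference 0.56, SE 0.11, limma adjusted p = 0.0354). That call did not hold once any one array other than KO replicate 1 was left out (highest adjusted p 0.152). The groups were separate for both genes, and the change of Kat2b exceeded that of Kat2a by 0.35 (exact permutation p = 0.10, 0.225 adjusted over the pairs).

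The other acetyltransferases passed the test in neither direction. Ep300, the coactivator p300 of enhancers, measured 8.97, 9.32 and 9.12 in KO arrays and 8.73, 8.54 and 8.90 in WT arrays. All KO values were higher, with a difference of 0.41 (95% interval 0.08 to 0.75, adjusted p = 0.193). Its paralog Crebbp measured 10.86, 11.16 and 11.13 in KO arrays and 10.57, 10.63 and 11.10 in WT arrays, with overlapping groups. The paralogs Kat6a and Kat6b, catalytic subunits of alternative versions of a shared complex, differed by 0.24 and -0.42, each with separate groups. Kat6b measured 6.93, 6.87 and 7.10 in KO arrays and 7.35, 7.19 and 7.60 in WT arrays (adjusted p = 0.176). The change of Kat6a exceeded that of Kat6b by 0.65 (exact permutation p = 0.10, 0.225 adjusted over the pairs). Kat7, which acetylates histones near replication origins, measured 7.77, 7.72 and 7.64 in KO arrays and 8.21, 7.87 and 8.10 in WT arrays, a difference of -0.35 (adjusted p = 0.198). Kat5, a subunit of a complex that acts in DNA repair, differed by 0.23, and Kat8, an acetyltransferase of histone H4, by 0.12 with overlapping groups.

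Among the 11 deacetylases 1 rose and 0 fell, with a median difference of 0.18. Hdac7 belongs to class IIa, whose members shuttle between nucleus and cytoplasm and bind MEF2 factors. It measured 6.98, 7.05 and 6.97 in KO arrays, against 6.47, 6.45 and 6.34 in WT arrays. Both groups were narrow and separate, and Hdac7 was 1.49-fold higher in KO (log2 difference 0.58, SE 0.10, n = 3 each, limma adjusted p = 0.0202). Only leaving out KO replicate 1 kept that call, and leaving out any one of the other arrays ended it (highest adjusted p 0.0999). The other members of class IIa were Hdac4, with a difference of 0.45 (95% interval 0.09 to 0.81), Hdac9, with 0.39 (0.06 to 0.72), and Hdac5, with -0.11 (-0.57 to 0.34). The KO arrays lay above the WT arrays for Hdac4 and Hdac9, and the groups of Hdac5 overlapped. A second Hdac4 probe set measured 6.12 in KO and 6.16 in WT, so of its probe sets the brighter one alone was higher in KO.

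Class I deacetylases act in the nucleus as subunits of corepressor complexes. Hdac2 measured 9.01, 9.10 and 9.12 in KO arrays, against 8.64, 8.75 and 8.39 in WT arrays. The groups were separate and the difference was 0.48 (95% interval 0.19 to 0.78, adjusted p = 0.0876). Its paralog Hdac1 measured 9.51, 9.62 and 9.56 in KO arrays and 9.39, 9.01 and 9.59 in WT arrays, with overlapping groups. Hdac3, the deacetylase of the NCOR complex, differed by -0.27 (-0.85 to 0.30), and Hdac8 by 0.18 (-0.16 to 0.52). The mainly cytoplasmic Hdac6, a tubulin deacetylase, differed by 0.02, Hdac10 by 0.09 and Hdac11, the single member of class IV, by -0.02, all with overlapping groups.

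Of 49 other acetylation genes, which include bromodomain readers, sirtuins and corepressor subunits, 0 rose and 1 fell, with a median difference of 0.11. Rcor3, a corepressor that binds the demethylase Kdm1a, measured 7.37, 7.19 and 6.80 in KO arrays and 8.04, 7.82 and 7.91 in WT arrays. It fell by 0.80 on the log2 scale (SE 0.16, limma adjusted p = 0.0357), and the call was lost without any one array other than KO replicate 1 (highest adjusted p 0.113).

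The upstream sequences of Kat2a and Hdac7 are shown as those of the members of this group that rose and whose windows lie outside the annotated gene for most of their length. Neither held any of the motifs, so all letters are in lower case. The Kat2a stretch has 8 CpG dinucleotides in 232 bases and that of Hdac7 has 6 in 250.
Kat2a, chr11:100712486-100712717 (minus strand): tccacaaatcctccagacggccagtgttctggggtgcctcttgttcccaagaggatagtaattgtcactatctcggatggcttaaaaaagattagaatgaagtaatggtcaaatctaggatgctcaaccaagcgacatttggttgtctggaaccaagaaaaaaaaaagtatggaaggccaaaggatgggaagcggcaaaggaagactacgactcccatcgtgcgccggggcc
Hdac7, chr15:97844503-97844752 (minus strand): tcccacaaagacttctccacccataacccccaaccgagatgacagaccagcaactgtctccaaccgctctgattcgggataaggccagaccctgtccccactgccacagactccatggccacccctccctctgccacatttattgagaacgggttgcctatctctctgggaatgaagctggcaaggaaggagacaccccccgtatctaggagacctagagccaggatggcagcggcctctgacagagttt

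Histone methylation genes rose in 1 of 10 cases (10%, beside 2.3% of all genes) and fell in 0, with a median difference of 0.30. All 5 measured methyltransferases had a positive difference. Setd2, which trimethylates histone H3 along transcribed genes, measured 10.32, 10.54 and 10.20 in KO arrays, against 9.63, 9.75 and 9.89 in WT arrays. The groups were separate and Setd2 was 1.51-fold higher in KO (log2 difference 0.60, SE 0.13, n = 3 each), but its limma adjusted p of 0.0491 lay just under the threshold. Its call was lost without any single array (adjusted p between 0.056 and 0.177) and in 13 of 17 alternatives in all. A second Setd2 probe set measured 9.25, 9.86 and 9.82 in KO arrays and 8.73, 9.04 and 9.25 in WT arrays. Its difference was of like size, 0.64 (adjusted p over probe sets 0.173).

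Ehmt1 and Ehmt2 form a heterodimer that methylates histone H3 in silent euchromatin. Ehmt1 measured 6.66, 6.88 and 6.64 in KO arrays and 6.20, 6.32 and 6.19 in WT arrays. Its groups were separate, with a difference of 0.49 (95% interval 0.22 to 0.75, adjusted p = 0.061), while Ehmt2 differed by 0.09 (-0.28 to 0.46). The change of Ehmt1 was larger than that of Ehmt2 by 0.40, with gaps that overlapped between genotypes (exact permutation p = 0.20, 0.36 adjusted over the pairs). With so few arrays that test can show a difference for no pair. Dot1l, which methylates the core of histone H3 in transcribed genes, measured 7.56, 8.01 and 8.15 in KO arrays and 6.79, 7.41 and 7.99 in WT arrays. The groups overlapped through WT replicate 3, and the interval was wide (difference 0.51, 95% interval -0.18 to 1.21). The difference was 0.21 without WT replicate 1 and 0.81 without WT replicate 3. Nsd1, another histone H3 methyltransferase, differed by 0.14 with overlapping groups.

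Of the 5 demethylases 0 rose and 0 fell by limma, and 0 had an unadjusted p under 0.05. Their median difference was -0.01. Kdm6b removes the mark of PRC2 and is induced by inflammatory stimuli in myeloid cells. It measured 8.55, 9.68 and 9.96 in KO arrays, against 8.05, 8.93 and 9.16 in WT arrays. The range within each genotype exceeded the difference between them, 0.68 (95% interval -0.27 to 1.64, adjusted p = 0.502). In both genotypes the array numbered 1 was the lowest. The difference ran from 0.35 without WT replicate 1 to 1.11 without KO replicate 1, and Kdm6b passed the threshold with both of these arrays left out (0.78, limma adjusted p = 0.0365). Kdm2b, which brings a variant PRC1 to unmethylated CpG islands, measured 6.54, 7.21 and 7.16 in KO arrays and 6.37, 6.44 and 6.73 in WT arrays. Only KO replicate 1 lay within the WT range, and without it Kdm2b rose by 0.67 (limma adjusted p = 0.0353, against 0.318 with all arrays). Handling stress genes, a list of immediate early genes and the heat shock gene Hspa1a, shifted from the WT mean by 0.09, 0.49 and 0.58 in KO replicates 1 to 3 and by 0.05, 0.21 and -0.29 in WT replicates 1 to 3. Their part in the levels of Kdm6b and Kdm2b was not tested. Kdm1a, the demethylase of corepressor complexes, measured 8.30 ± 0.11 in KO and 8.33 ± 0.07 in WT (SD, n = 3 each), and the related Kdm4a and Kdm4b differed by -0.01 and -0.20 with overlapping groups.

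Of 48 other histone methylation genes, 2 rose and 0 fell, with a median difference of 0.05. That is 4.17% higher, near the 2.3% of all genes, and both genes were demethylases. Kdm7a, a demethylase of repressive histone marks, measured 9.05, 9.60 and 9.51 in KO arrays, against 8.11, 8.04 and 8.52 in WT arrays, and was 2.24-fold higher in KO (log2 difference 1.16, SE 0.19, n = 3 each, limma adjusted p = 0.0152). Kdm5b, a demethylase of an active promoter mark, measured 7.82, 7.52 and 7.59 in KO arrays, against 7.05, 6.66 and 6.78 in WT arrays, and was 1.76-fold higher (log2 difference 0.81, SE 0.14, limma adjusted p = 0.0204). All KO arrays lay above all WT arrays for both. Each call held without KO replicate 1 and without 1 WT array, replicate 3 for Kdm7a and replicate 1 for Kdm5b, and was lost without any one of the other 4 arrays (highest adjusted p 0.0698 and 0.0827).

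DNA methylation enzymes passed the test in neither direction, 0 of 6 by limma, with 1 higher and 0 lower at an unadjusted p under 0.05. Their median difference was 0.35, and 5 of the 6 had a positive difference. By the brightest probe sets, KO replicate 1 lay away from the other KO arrays for Dnmt1 and all 3 TET genes. Dnmt1, which copies methylation after replication, measured 8.31, 7.57 and 7.53 in KO arrays, against 7.52, 7.42 and 7.45 in WT arrays. KO replicate 1 stood high and the other KO arrays just above the WT arrays, and without it the difference was 0.09 in place of 0.34 (adjusted p = 0.769 and 0.513). Tet1, an oxidase of methylated cytosine, measured 8.58, 7.85 and 7.93 in KO arrays and 7.83, 7.68 and 7.76 in WT arrays. The same array stood high in this probe set, and without it the difference was 0.14 in place of 0.37 (adjusted p = 0.613 and 0.435).

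Tet2, the TET enzyme often mutated in human blood cell clones, showed the opposite pattern. It measured 6.96, 7.99 and 8.04 in KO arrays, against 7.21, 7.02 and 7.23 in WT arrays. KO replicate 1 lay below every WT array, the other KO arrays above them. With all arrays the difference was 0.51 (95% interval -0.14 to 1.16, limma adjusted p = 0.452), and without KO replicate 1 Tet2 rose by 0.86 (limma adjusted p = 0.0085). The neutrophil granule and G2 and mitosis markers that set KO replicate 1 apart moved with Dnmt1 and Tet1 there, and against Tet2. The summed linear level of the 10 neutrophil granule markers ran from 618 to 19647 in KO and from 284 to 1509 in WT, with 0 of them past the threshold. That of the 14 measured G2 and mitosis markers ran from 796 to 3841 in KO and from 519 to 562 in WT, again with 0 past the threshold. Their part in the levels of Dnmt1, Tet1 and Tet2 was not tested.

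The de novo methyltransferases had differences of opposite sign. Dnmt3a measured 7.58, 7.84 and 7.97 in KO arrays, against 7.14, 7.44 and 7.38 in WT arrays. Its groups were separate and the difference was 0.48 (95% interval 0.14 to 0.81, adjusted p = 0.136). Dnmt3b, at a dim signal of 5.57 ± 0.19 in KO and 5.80 ± 0.16 in WT (SD, n = 3 each), differed by -0.23 (adjusted p = 0.52). The change of Dnmt3a exceeded that of Dnmt3b by 0.70 (exact permutation p = 0.10, 0.225 adjusted over the pairs). Tet3 measured 7.85, 8.39 and 8.46 in KO arrays and 7.83, 7.69 and 8.20 in WT arrays, with overlapping groups. Its difference was 0.33 (adjusted p = 0.511), and without KO replicate 1, the lowest KO array, it was 0.52 (adjusted p = 0.13). Further probe sets of Tet1 differed by 0.67 and 0.66 and a further one of Tet3 by 0.24, none of them past the threshold. The first of Tet1 measured 7.14, 6.20 and 6.80 in KO arrays and 5.94, 5.89 and 6.30 in WT arrays. The second measured 6.775, 6.71 and 6.42 in KO arrays and 6.51, 5.45 and 5.96 in WT arrays. KO replicate 1 was the highest KO array in each Tet1 probe set, but in the second of these further ones it lay close to KO replicate 2.

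Of 22 other DNA methylation genes, 1 rose (4.55%, near the 2.3% of all genes) and 1 fell, with a median difference of 0.13. Idh2, the mitochondrial isocitrate dehydrogenase that makes the cosubstrate of TET enzymes, measured 8.52, 9.11 and 9.12 in KO arrays and 8.20, 7.82 and 7.46 in WT arrays. It was 2.14-fold higher in KO (log2 difference 1.10, SE 0.23, n = 3 each, limma adjusted p = 0.0441), and its call was lost without KO replicate 2 or 3 or WT replicate 2 or 3 (highest adjusted p 0.168). Zbtb38, a zinc finger protein that binds methylated DNA, measured 7.09, 6.91 and 6.89 in KO arrays and 7.80, 7.62 and 7.63 in WT arrays. It fell by 0.72 on the log2 scale (SE 0.11, limma adjusted p = 0.0129), and its call was lost without KO replicate 2 or 3 (highest adjusted p 0.0682). Both genes had separate groups.

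**Figure D4:**
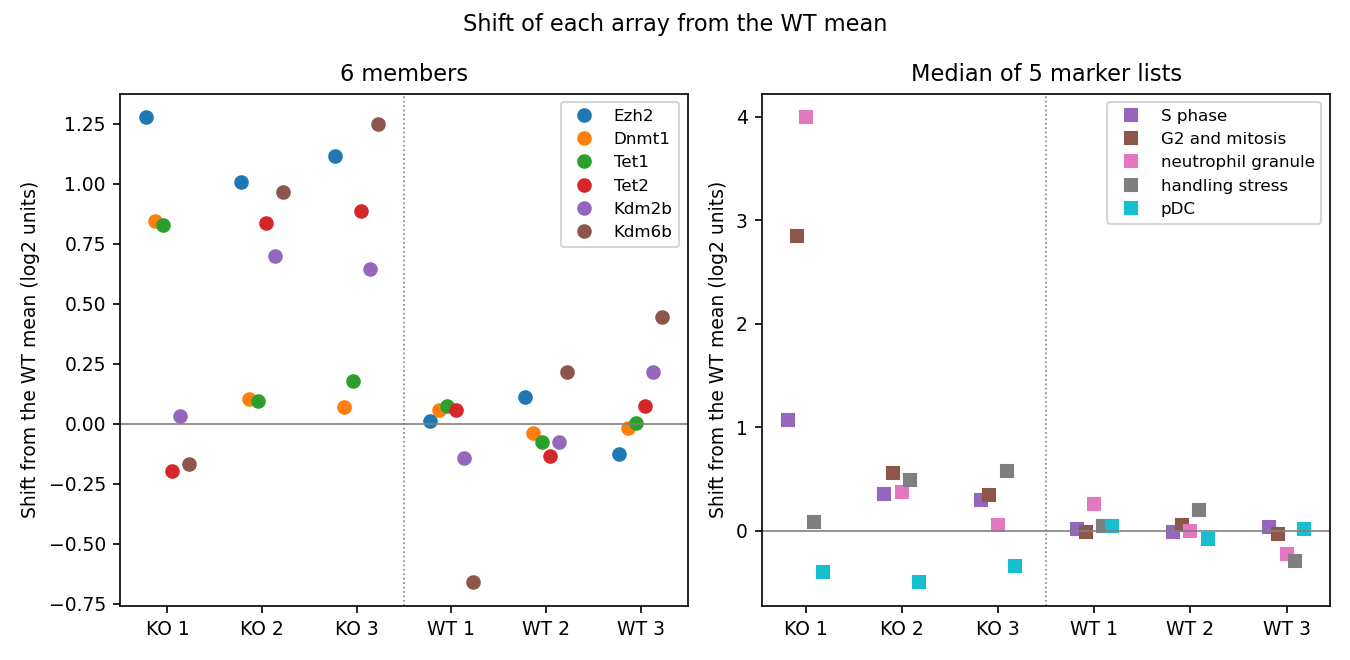
The left panel plots, for 6 modifying enzymes, the shift of each array from the WT mean in log2 units. The right panel plots the median shift of 5 marker lists in the same unit, on a vertical axis of its own. KO arrays stand left of the WT arrays. In KO replicate 1, Dnmt1 and Tet1 stand high, Kdm2b lies near the WT mean and Tet2 and Kdm6b lie below it, beside shifts of 3.999 for neutrophil granule and 2.85 for G2 and mitosis markers, while Ezh2 stands high in all 3 KO arrays.

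The ATPases of the BAF complex, which slides nucleosomes at promoters and enhancers, passed the test in neither direction. Smarca4 measured 9.70, 9.60 and 9.73 in KO arrays and 9.56, 9.50 and 9.74 in WT arrays, a difference of 0.08 (95% interval -0.18 to 0.34). Smarca2 measured 8.58, 9.12 and 9.07 in KO arrays and 8.35, 8.79 and 8.78 in WT arrays, a difference of 0.28 (-0.16 to 0.72). The groups overlapped for both. The Smarca2 difference was 0.46 without KO replicate 1 and 0.14 without WT replicate 1. Of the 9 pairs of paralogs, Smarca2 and Smarca4, Ep300 and Crebbp, Hdac2 and Hdac1, and Tet2 and Tet3 had changes that differed by 0.20, 0.13, 0.25 and 0.18, first minus second, and their gaps overlapped between genotypes (exact permutation p 0.40 or 0.50). Of 40 other remodelling genes 2 rose (5%, near the 2.3% of all genes) and 0 fell, with a median difference of 0.14. Chd3, an ATPase of the NuRD complex, which also contains Hdac1 and Hdac2, measured 8.50, 8.76 and 8.91 in KO arrays, against 7.04, 7.47 and 7.67 in WT arrays. Its groups were separate, it was 2.51-fold higher in KO (log2 difference 1.33, SE 0.19, n = 3 each, limma adjusted p = 0.00817), and the call held without any single array (highest adjusted p 0.0431). Arid2, a subunit of the PBAF version of the complex, measured 8.20, 8.13 and 8.34 in KO arrays and 7.61, 7.57 and 7.79 in WT arrays. It rose by 0.57 (SE 0.12, limma adjusted p = 0.0379), a call lost without any one array other than KO replicate 1 (highest adjusted p 0.151).

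Over the 184 other chromatin genes together, 5 rose and 3 fell, with a median difference of 0.11, and 63.6% had a positive difference. Of these genes 2.72% rose, beside 2.3% of all genes. Markers of other spleen cells were checked, although a sort for B220 and SiglecH should remove most of those cells. The summed linear level of 8 red pulp macrophage markers ran from 254 to 310 in KO and from 333 to 1254 in WT. All 8 had a negative difference, with a median of -1.21, and 1 of them, C1qb, passed the threshold. In 5 every KO array lay below every WT array, a pattern of 11.7% of all genes. The WT arrays were unlike: the list's median stood at -0.85, 0.55 and 0.17 from the WT mean in WT replicates 1 to 3. The sum of 5 T cell markers ran from 508 to 563 in KO and from 329 to 377 in WT. Among them Cd5 alone rose, by 1.09 log2 units (limma adjusted p = 0.0159), while the CD3 chains of the T cell receptor complex, Cd3d, Cd3e and Cd3g, differed by -0.29, -0.08 and -0.02 and the list's median was -0.02. The sum of 6 B cell markers ran from 411 to 450 in KO and from 364 to 428 in WT, and Cd79a alone rose among them, by 1.65 (limma adjusted p = 0.00603). The sum of 5 plasma cell markers ran from 1259 to 2278 in KO and from 725 to 1158 in WT, with Sdc1 and Prdm1 higher. The rest of that list did not share a direction. Jchain differed by 0.77, Xbp1 by -0.25 and Mzb1 by -0.97 (limma adjusted p = 0.0859), none past the threshold. Jchain measured 7.24, 8.04 and 7.90 in KO arrays and 4.49, 8.41 and 7.96 in WT arrays, so its positive difference rested on WT replicate 1. The sum of 6 NK cell markers ran from 224 to 467 in KO and from 168 to 216 in WT. Only 3 of these 6 had a positive difference, with a list median of 0.02, and Nkg7 had the largest, 1.72. For 3 erythroid markers the sum ran from 90.4 to 114 in KO and from 95.8 to 107 in WT. In both the NK cell and the erythroid list 0 passed the threshold. Markers were named here after their values were seen. Their part in the levels of the modifying enzymes was not tested.

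**Figure D5:**
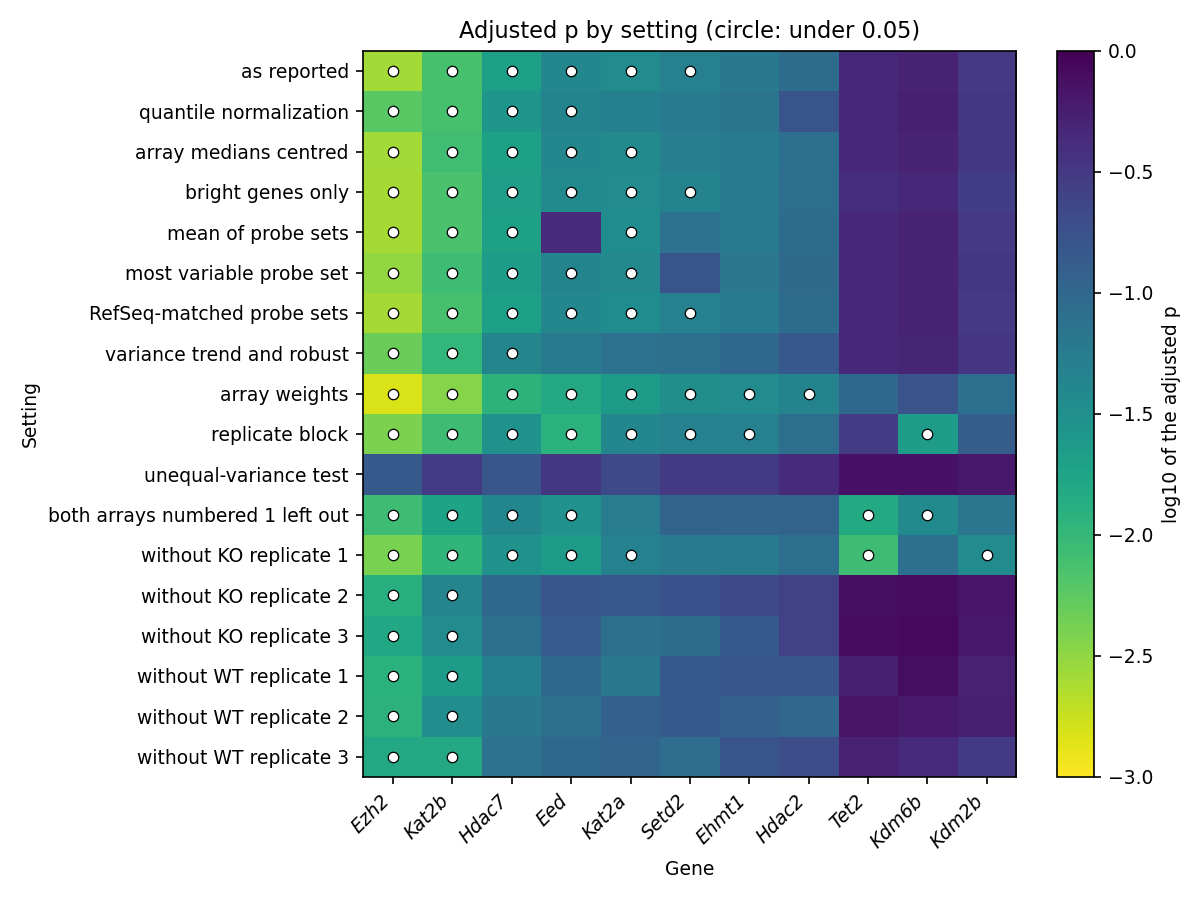
Rows are the settings of the fit and columns are the 11 modifying enzymes that had an adjusted p under 0.05 in at least 1 of them, coloured by the log10 of the adjusted p. Circles mark an adjusted p under 0.05. Ezh2 and Kat2b carry a circle in every setting other than the unequal-variance test, in which no gene shown does.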

How the data were processed

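The authors deposited 1 table of log2 expression values for 34760 probe sets on 6 arrays. That scale follows from the range of the values. The authors' software and normalization were not given in the sources used here. NuGen PICO SL amplification preceded hybridisation, per the labels' protocols.

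Probe sets with 1 symbol in the platform annotation (21640; 1321 had several, 11799 were not listed) were collapsed to 19937 genes by the brightest probe set over all arrays. KO and WT were compared with limma 3.58.1 in R 4.3.3 (lmFit, eBayes, no covariates), with Benjamini-Hochberg adjustment over all genes and a threshold of 0.05. Values are log2 units, KO minus WT, with the fit's SE and 95% interval. Exact permutation tests used all 20 relabellings. The fit was tested on simulated data. No detection calls were used, and the number of arrays limits the precision.

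The members and gene lists were chosen with earlier results of these data known. All members may be named. Full array values were given for those past the threshold, the largest difference and the brightest in each role, and for others where they show a pattern. At most 5 genes past the threshold were named from each further list. The alternatives were quantile normalization, centred medians, bright genes (above the 25th percentile), the mean or the most variable probe set, RefSeq-matched probe sets, a robust variance trend, array weights, a replicate block (both with statmod 1.5.0 installed), an unequal-variance test, both arrays numbered 1 left out, and each array left out. Figures used matplotlib 3.10.9.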

Additional observations from a re-analysis of the deposited data

How the results depend on the processing

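The number of members that rose was 6 as reported, 3 with a robust variance trend and 0 with the unequal-variance test, against 2 to 7 when single arrays were left out. In none of the 17 alternatives did a member fall past the threshold. Ezh2 and Kat2b passed in 16 of 17, Hdac7 in 11, Eed in 9, Kat2a in 8 and Setd2 in 4. The counts over all genes were 459 higher and 415 lower as reported, 716 and 647 with array weights, 2 and 2 with the unequal-variance test, 741 and 641 with both arrays numbered 1 left out, and 249 to 780 higher and 202 to 719 lower when single arrays were left out. The median of Polycomb genes, 0.43 as reported, was 0.41 with quantile normalization, 0.24 with the mean of probe sets, because that averages in the dim Eed probe set, 0.37 with both arrays numbered 1 left out, and 0.32 to 0.47 when single arrays were left out. When single arrays were left out, the median of acetylation genes ran from 0.14 to 0.31, that of histone methylation genes from 0.19 to 0.36, that of DNA methylation genes from 0.32 to 0.42 and that of the remodelling ATPases from 0.0991 to 0.26. With both arrays numbered 1 left out, Kat2a and Setd2 were lost and Kdm6b (0.78, adjusted p = 0.0365) and Tet2 (0.89, 0.0147) were added. Array weights added Ehmt1 (adjusted p = 0.036) and Hdac2 (0.0457).

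Differences near 0 changed sign in 10 of 47 members, none of them past the threshold. Ezh1 was -0.0280 with quantile normalization, -0.0244 with array weights and -0.0215 with both arrays numbered 1 left out, Kdm4a 0.0515 with both arrays numbered 1 left out, and Hdac5 0.0029 with array weights. Leaving out single arrays gave ranges of -0.0215 to 0.37 for Kat8, -0.24 to 0.0872 for Hdac5, -0.0447 to 0.0719 for Hdac6, -0.13 to 0.10 for Hdac11, -0.0524 to 0.19 for Ehmt2, -0.0889 to 0.0103 for Kdm1a, -0.0633 to 0.0677 for Kdm4a, -0.0276 to 0.0759 for Ezh1, -0.0811 to 0.0630 for Bmi1 and -0.16 to 0.14 for Ring1. The cause was not tested.

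The replicate block gave 8 members higher and 0 lower, adding Ehmt1 (adjusted p = 0.0497) and Kdm6b (0.0217), and 707 genes higher and 655 lower. The numbers were not shown to pair the samples: deviations from the group means correlated across genes at 0.379, 0.0968 and 0.252 for arrays 1, 2 and 3, and KO replicate 2 correlated more with WT replicate 3 (0.2). KO replicate 1 correlated at -0.103 and -0.306 with WT replicates 2 and 3. WT replicate 1 correlated at -0.275 and -0.287 with KO replicates 2 and 3. The arrays numbered 1 thus deviated alike, and the main fit does not model that. Its cause was not tested.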
